A study of Mus musculus with 16 samples.

Results

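The transcripts described here belong to 33 genes of fatty acid oxidation and of the PPAR-alpha programme. They were chosen by gene symbol, with earlier results of these data known. All 33 were found among the 23420 genes of the deposited count files. They comprise 5 genes of the carnitine shuttle, 10 of mitochondrial beta-oxidation, 3 of electron transfer from that pathway, 8 peroxisomal genes, 3 microsomal Cyp4a genes, and 4 others, namely Ppara itself, the hormone gene Fgf21 and the PPAR-alpha targets Vnn1 and Pdk4. Polyadenylated RNA was sequenced from 8 male C57BL/6 mice, each giving 1 library of adipocytes freed from subcutaneous fat with collagenase and 1 library of liver. Of these mice, 4 were labelled wild-type (WT-1153, WT-1138, WT-1136 and WT-1135) and 4 were labelled as adipocyte-specific Trib1 knockouts (KO-1152, KO-1151, KO-1139 and KO-1137), which gave 4 groups of 4 libraries. The mice were 76 days old, apart from WT-1153, KO-1152 and KO-1151 at 70 days. Where 4 values of a group are listed, they run in rising order of mouse number. The labels name neither the driver of the deletion nor the deleted part of Trib1, and no treatment or diet.

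Fatty acids are burned in several places in the cell. Long chains enter the mitochondrion as carnitine esters and are shortened there by cycles of dehydrogenation, hydration, oxidation and thiolysis, with electrons passed to the respiratory chain by the electron transfer flavoprotein. Peroxisomes shorten very long and branched chains, and microsomal cytochromes of the Cyp4a family hydroxylate the far end of the chain. PPAR-alpha is the nuclear receptor that switches on much of this programme in liver during fasting, while fat cells are better known for storing and releasing fatty acids than for burning them.

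Total counts ran from 28560887 to 53716669 per library. Trib1 did not separate the genotype labels. In adipocytes it lay at 615 to 1070 CPM (a library's counts scaled to a common total, with TMM factors over all 16 libraries) in wild-type libraries and at 920 to 1205 CPM in the libraries labelled knockout, which differed by 0.28 ± 0.18 on the log2 scale (SE, n = 4 in each group; edgeR adjusted p = 0.241). Liver Trib1 differed by 0.12 ± 0.18 (edgeR adjusted p = 0.875). Directions below compare labels for this reason. Whether exons outside a deletion added to the Trib1 total was not tested, and the counts are per gene. The tissue labels fitted their markers. The 10 adipocyte markers summed to 28641 to 42652 CPM in the adipocyte libraries and to 39.3 to 72.0 CPM in liver. The 10 hepatocyte markers summed to 135162 to 173797 CPM in liver and to 2046 to 6807 CPM in the adipocyte libraries. Among them Alb, the serum albumin gene of hepatocytes, lay at 78811 to 109096 CPM in liver and 15.6 to 93.4 CPM in adipocytes. Other genes of the list therefore made up most of its sum in the adipocyte libraries.

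In adipocytes labelled knockout, much of the mitochondrial and part of the peroxisomal set lay higher than in wild-type adipocytes. Of the 33 genes, 30 passed the filter on low counts, and all 3 Cyp4a genes did not. Of the 30, 16 rose and 1, Cpt1a, fell at an adjusted p under 0.05 (edgeR quasi-likelihood test, adjusted over 13795 genes), while 13 did not pass. Over all genes tested, 35.2% passed, 18% rising and 17.1% falling. The median log2 difference was 0.36 over the 30 genes and -0.01 over all genes. By compartment, 10 of 18 mitochondrial genes rose and 1 fell, 4 of 8 peroxisomal genes rose, and 2 of the 4 remaining genes rose. The 4 libraries labelled knockout all lay above the 4 wild-type libraries in 9 of the 30 genes, against 18.7% of all genes tested. This used TMM factors from the 8 adipocyte libraries, as in the test. The 9 were Crat, Acadvl, Acadl, Decr1, Etfa, Etfdh, Acaa1b, Hsd17b4 and Vnn1, all among the 16 that rose. On the CPM printed here, scaled over all 16 libraries, Hadh and Crot narrowly separated as well. The plot of adipocyte levels shows each library.

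**Figure D1:**
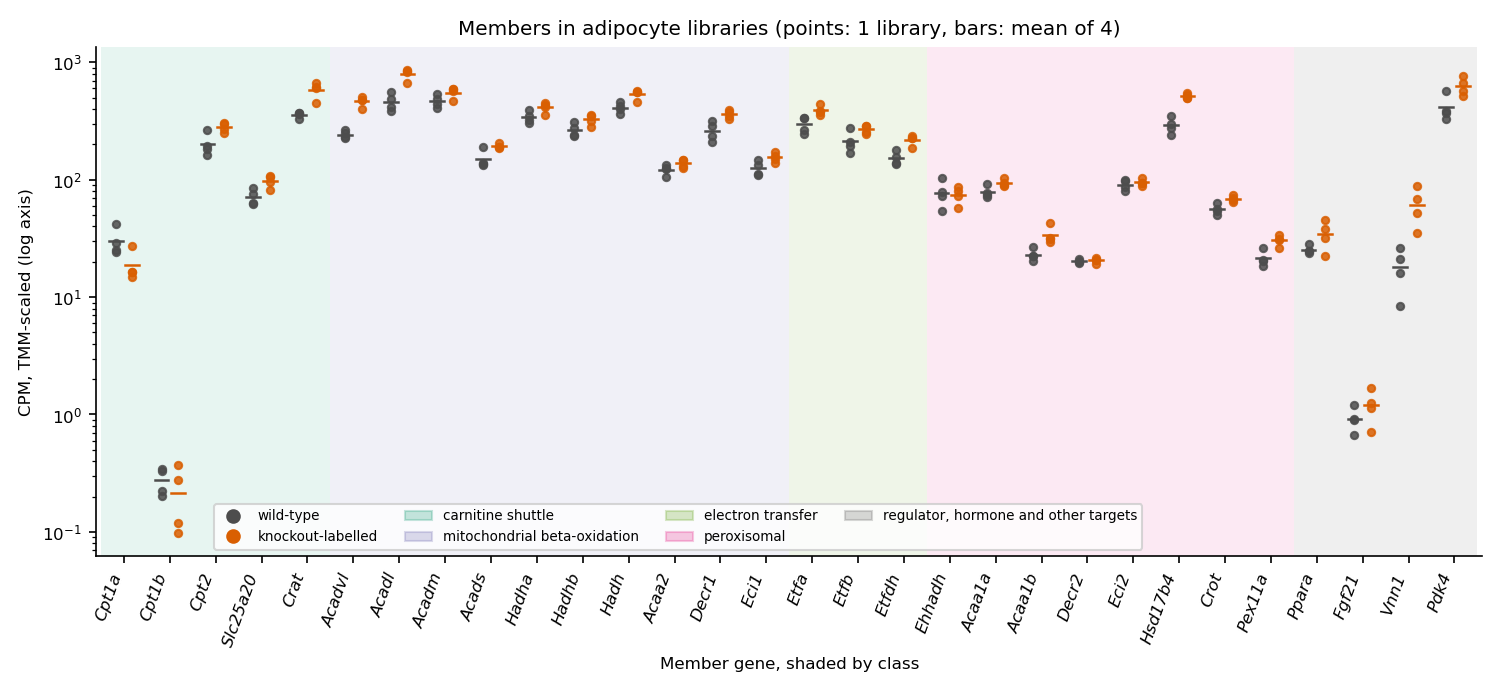
Each point is 1 adipocyte library (CPM on a log axis), bars are means of 4, and shading marks the class of the 30 genes that were tested. Acadvl, Acadl and Hsd17b4 separate the groups completely, Cpt1a runs the other way, and Cpt1b and Fgf21 lie near 1 CPM or below.

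The carnitine shuttle moved in both directions. Cpt1a encodes the liver form of carnitine palmitoyltransferase 1, which makes acylcarnitine at the outer mitochondrial membrane and sets the rate of entry. It lay at 41.7, 29.0, 25.1 and 24.3 CPM in the 4 wild-type libraries, and at 27.5, 16.2, 16.5 and 14.7 CPM in the 4 labelled knockout. The groups overlapped through KO-1137, which lay above 2 wild-type libraries. Cpt1a fell by 0.71 ± 0.23 on the log2 scale (SE, n = 4 per group; edgeR adjusted p = 0.0369). Cpt2, the inner-membrane transferase that turns acylcarnitine back into acyl-CoA, lay at 162 to 264 CPM in the wild-type libraries, against 251 to 307 CPM in those labelled knockout, and rose by 0.47 ± 0.14 (edgeR adjusted p = 0.0281). Relative to Cpt2 and per length, Cpt1a stood at 0.0344 to 0.0804 in the wild-type libraries, against 0.0168 to 0.0342 in those labelled knockout, a ratio that does not depend on scaling and in which the groups only just failed to meet. Slc25a20, the carrier that exchanges acylcarnitine for carnitine, rose by 0.42 ± 0.12 (edgeR adjusted p = 0.0256).

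Crat, the acetyltransferase that moves short acyl groups onto carnitine, showed the largest rise of the shuttle. Its level was 330, 365, 371 and 369 CPM in the wild-type libraries, and 450, 666, 621 and 611 CPM in the knockout-labelled ones. No wild-type library reached the lowest knockout-labelled library, and the difference was 0.68 ± 0.13 (SE, n = 4 per group; edgeR adjusted p = 0.00385). Cpt1b, the muscle form of the outer-membrane enzyme, lay at 0.0974 to 0.374 CPM in all adipocyte libraries and did not differ detectably (-0.35 ± 0.47, edgeR adjusted p = 0.590).

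Among the 10 genes of the mitochondrial spiral, 5 rose and all 10 had a difference above 0. The first step is taken by acyl-CoA dehydrogenases of graded chain length. Acadvl, for very long chains, lay at 230, 266, 225 and 250 CPM in the 4 wild-type libraries, and at 404, 507, 478 and 475 CPM in the 4 labelled knockout. The groups were far apart, and Acadvl rose by 0.92 ± 0.10 (SE, n = 4 per group; edgeR adjusted p = 0.000288). Acadl, for long chains, rose by 0.78 ± 0.14 (edgeR adjusted p = 0.00283), at 388 to 561 CPM without and 673 to 859 CPM with the knockout label. Acads, for short chains, rose by 0.35 ± 0.11 (edgeR adjusted p = 0.0351). Acadm, the medium-chain enzyme between them, differed by 0.22 ± 0.12 and did not pass (edgeR adjusted p = 0.168). Its levels overlapped, at 406 to 536 CPM in the wild-type libraries, against 470 to 592 CPM in those labelled knockout.

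The later steps of the spiral and the electron transfer genes also included members that did not pass. Hadha and Hadhb encode the alpha and beta subunits of the trifunctional protein, which carries out the last reactions on long chains. Hadha differed by 0.24 ± 0.11 (edgeR adjusted p = 0.113) and Hadhb by 0.27 ± 0.12 (edgeR adjusted p = 0.0996), and neither passed. Hadh, the hydroxyacyl-CoA dehydrogenase for shorter chains, rose by 0.36 ± 0.11 (edgeR adjusted p = 0.0273). Acaa2, the mitochondrial thiolase, differed by 0.15 ± 0.10 and did not pass (edgeR adjusted p = 0.251). Of the auxiliary enzymes for unsaturated chains, the reductase gene Decr1 rose by 0.44 ± 0.13 (edgeR adjusted p = 0.0269), and the isomerase gene Eci1 did not pass at 0.28 ± 0.11 (edgeR adjusted p = 0.0804). Of the electron transfer genes, Etfa, a flavoprotein subunit, rose by 0.37 ± 0.12 (edgeR adjusted p = 0.0449), and Etfdh, the oxidoreductase that hands the electrons to ubiquinone, rose by 0.51 ± 0.11 (edgeR adjusted p = 0.00714). Etfb, the other flavoprotein subunit, did not pass at 0.31 ± 0.14 (edgeR adjusted p = 0.108).

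Promoter windows from RefSeq (GRCm38.p6, 250 bases before to 50 after the annotated start) were matched for 24 of the 33 genes. They are shown for Cpt1a, the only gene that fell, for Acadvl, which rose most among the mitochondrial genes, for Acadm, and for Hadha, whose window overlaps that of Hadhb. Capitals in the first 3 mark the letters AGGTCA on either strand, the half-site bound by PPAR-alpha and many other nuclear receptors. Capitals in Hadha mark the 228 bases it shares with the Hadhb window. The windows lie at chr19:3323051-3323350 (plus strand, Cpt1a), chr11:70015379-70015678 (minus strand, Acadvl), chr3:153944594-153944893 (minus strand, Acadm) and chr5:30154931-30155230 (minus strand, Hadha), each written 5′ to 3′ along the gene.
Cpt1a: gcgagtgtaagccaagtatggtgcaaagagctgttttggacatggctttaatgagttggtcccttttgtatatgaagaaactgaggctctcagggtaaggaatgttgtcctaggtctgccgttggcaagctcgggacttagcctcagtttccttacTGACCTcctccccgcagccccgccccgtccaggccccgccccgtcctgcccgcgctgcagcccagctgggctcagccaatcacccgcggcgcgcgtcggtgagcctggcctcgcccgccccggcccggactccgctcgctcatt
Acadvl: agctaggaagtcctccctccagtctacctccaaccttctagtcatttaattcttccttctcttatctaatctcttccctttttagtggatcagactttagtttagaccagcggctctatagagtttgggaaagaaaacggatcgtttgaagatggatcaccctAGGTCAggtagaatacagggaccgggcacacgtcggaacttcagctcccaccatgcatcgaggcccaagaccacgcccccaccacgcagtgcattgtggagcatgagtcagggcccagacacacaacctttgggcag
Acadm: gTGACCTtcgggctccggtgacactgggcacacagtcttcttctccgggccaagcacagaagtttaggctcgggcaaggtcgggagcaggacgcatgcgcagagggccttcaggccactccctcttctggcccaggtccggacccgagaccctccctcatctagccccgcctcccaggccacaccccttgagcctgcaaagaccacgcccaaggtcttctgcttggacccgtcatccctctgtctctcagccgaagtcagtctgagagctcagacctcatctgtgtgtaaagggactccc
Hadha: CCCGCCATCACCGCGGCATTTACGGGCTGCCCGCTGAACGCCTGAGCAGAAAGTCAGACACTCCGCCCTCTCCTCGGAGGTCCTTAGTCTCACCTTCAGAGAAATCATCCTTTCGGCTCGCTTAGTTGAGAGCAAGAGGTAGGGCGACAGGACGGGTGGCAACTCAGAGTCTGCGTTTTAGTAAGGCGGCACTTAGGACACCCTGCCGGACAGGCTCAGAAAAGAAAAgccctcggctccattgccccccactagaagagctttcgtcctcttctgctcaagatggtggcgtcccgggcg

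The half-site AGGTCA stood in 3 of the 24 windows (12.5%), against 16.3% of all 32851 windows, searched on both strands. It began 94 bases before the start in Cpt1a, 87 in Acadvl and 249 in Acadm. A direct repeat of AGGTCA with 1 base between the copies, the textbook form of the PPAR element, stood in 0 of 24 and in 0.0396% of all windows. The looser repeat of AGGNCA with the same spacing, which includes it, stood in 0 of 24 and in 0.381%. These counts describe letters in a short window. Hadha and Hadhb start 273 bases apart and run in opposite directions. Their genotype differences lay close to each other in adipocytes (0.24 and 0.27) and in liver (0.13 and 0.12), and neither gene passed in either tissue. Between the tissues of wild-type mice they parted: Hadhb was called higher in adipocytes and Hadha was not called.

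The peroxisomal genes divided. Hsd17b4, the D-bifunctional protein, hydrates and oxidises very long and branched chains inside the peroxisome. It lay at 240, 353, 277 and 299 CPM in the 4 wild-type libraries, and at 500, 530, 544 and 495 CPM in the 4 labelled knockout. Every knockout-labelled library exceeded every wild-type one, and the rise was 0.80 ± 0.11 (SE, n = 4 per group; edgeR adjusted p = 0.00108). Ehhadh, the L-bifunctional protein that does the same chemistry on straight chains, overlapped between the groups (54.4 to 104 and 57.7 to 87.1 CPM) and differed by -0.08 ± 0.18 (edgeR adjusted p = 0.755). Acaa1b, a peroxisomal thiolase, rose by 0.54 ± 0.14 (edgeR adjusted p = 0.0141), at 20.3 to 26.8 CPM in the wild-type libraries, against 29.7 to 43.0 CPM in those labelled knockout. Its near-identical partner Acaa1a did not pass at 0.23 ± 0.09 (edgeR adjusted p = 0.0774), and the way the counting treated reads that fit both is not given in the sources used here, so both values are uncertain.

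Of the other peroxisomal genes, Crot, the octanoyltransferase that exports shortened chains, rose by 0.28 ± 0.08 (edgeR adjusted p = 0.0292). Pex11a, which promotes peroxisome division, rose by 0.49 ± 0.12 (edgeR adjusted p = 0.0120). The auxiliary enzyme genes Decr2 and Eci2 lay within 0.04 of 0 (-0.01 ± 0.07 and 0.04 ± 0.09, edgeR adjusted p = 0.902 and 0.773), while their mitochondrial counterparts Decr1 and Eci1 differed by 0.44 and 0.28. The peroxisomal share of the summed CPM per kb of the mitochondrial, peroxisomal and microsomal genes was 11.5% ± 0.283 (SD, n = 4) in wild-type and 11.7% ± 0.808 in knockout-labelled adipocytes. The groups overlapped in this share (11.1% to 11.8% and 10.9% to 12.8%).

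The microsomal genes were at the limit of detection in adipocytes. Cyp4a10 had 13 counts over the 4 wild-type and 14 over the 4 knockout-labelled libraries, all 14 of the latter in KO-1139. Cyp4a14 had 12 and 2 counts, and Cyp4a31 had 0 in all 8 libraries. A count of 0 allows up to 3 counts, or 0.0475 to 0.0730 CPM depending on the adipocyte library, which covers counting error only.

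Of the receptor, the hormone and the other targets, 2 of 4 rose. Vnn1, which encodes the pantetheinase vanin 1 and is a known PPAR-alpha target in liver, had the largest difference of the 30 genes tested in adipocytes. It lay at 16.0, 8.34, 21.2 and 26.4 CPM in the 4 wild-type libraries, and at 88.6, 35.1, 52.4 and 69.2 CPM in the 4 labelled knockout. The groups did not overlap, although each spread widely, and the rise was 1.73 ± 0.36 (SE, n = 4 per group; edgeR adjusted p = 0.00595). Pdk4, the kinase that shuts off pyruvate dehydrogenase and so spares glucose, rose by 0.59 ± 0.19 (edgeR adjusted p = 0.0355), at 327 to 568 CPM in the wild-type libraries, against 520 to 773 CPM in those labelled knockout. Ppara did not pass at 0.42 ± 0.18 (edgeR adjusted p = 0.102). It lay at 23.7 to 28.1 CPM in wild-type libraries and at 22.4, 37.9, 45.1 and 32.2 CPM in the knockout-labelled ones, with KO-1137 below all wild-type libraries. Fgf21 lay at 0.665 to 1.68 CPM and did not pass (0.35 ± 0.30, edgeR adjusted p = 0.399).

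The libraries of a group did not contribute evenly. KO-1137 was the lowest knockout-labelled library in 12 of the 16 genes that rose and the highest in 1, Vnn1. WT-1135 was the lowest wild-type library in 14 of the 16. Markers of some other cells moved with the genotype label as well, where 17.1% of all genes tested fell and 18% rose. All 10 endothelial markers fell, and they summed to 636 to 1797 CPM in the wild-type libraries, against 185 to 422 CPM in those labelled knockout. WT-1135 was highest among all 8 and KO-1137 highest among those labelled knockout. Of the 10 fibroblast and progenitor markers 8 fell (754 to 1020 against 332 to 734 CPM), of 9 mural markers 7 fell (483 to 618 against 391 to 504 CPM), of 10 lymphocyte markers 4 fell and of 10 macrophage markers 1 fell. Of 5 skeletal muscle markers tested 1, Acta1, fell, and the summed level of the list was 11.9 to 28.4 CPM without and 7.32 to 7.66 CPM with the knockout label, with no overlap. Cpt1a was likewise highest in WT-1135 and, among the knockout-labelled libraries, in KO-1137. Of the 10 adipocyte markers 2 rose, and their sums overlapped (28641 to 42652 and 35545 to 39554 CPM). The counts called among macrophage, skeletal muscle and adipocyte markers were thus near or below the share over all genes. The part of these markers in the differences above was not tested, and in bulk RNA fewer cells of a type and less RNA per cell cannot be told apart. Of 8 brown and beige markers tested 4 rose and 2 fell: Elovl3 rose and Cidea fell, Ucp1 lay at 5.34 to 46.2 and 2.97 to 6.77 CPM, and Zic1 was at 0 throughout.

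All 16 rises and the fall of Cpt1a had the same direction in the mice of 76 days (3 wild-type and 2 knockout-labelled) and in those of 70 days (1 and 2). With the 76-day mice alone, 3 of the 16 still passed, namely Acadvl, Hsd17b4 and Vnn1, and Cpt1a did not. Those 3 genes also passed under every alternative and with each mouse left out. The number of rises was 8 without WT-1135, WT-1138, KO-1139 or KO-1152 and 20 without KO-1137, and Cpt1a no longer passed without WT-1135, WT-1136, KO-1139, KO-1151 or KO-1152. Scaling by library totals alone shifted the median of all genes from -0.01 to -0.20 and left 7 rises, still with Cpt1a falling. The p-values measure the spread between mice, each giving 1 library per tissue.

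Other genes of the pathway, in lists chosen with earlier results of these data known, were counted in the same fit. Of 115 tested genes outside the 33, 56 rose and 11 fell, with a median of 0.36. Over all genes tested, 18% rose and 17.1% fell, with a median of -0.01. Of 19 other genes of mitochondrial acyl-CoA oxidation, 16 rose and 0 fell, among them Acad11, a dehydrogenase for long chains (1.26 ± 0.15), Acot2, a matrix thioesterase (0.97 ± 0.15), and Pcca and Pccb, the subunits of propionyl-CoA carboxylase (0.92 ± 0.11 and 0.61 ± 0.10). Of 28 other peroxisomal genes 17 rose and 0 fell. These included Phyh, the phytanoyl-CoA hydroxylase (0.88 ± 0.11), and the thioesterases Acot3, Acot4 and Acot5 (4.28 ± 0.47, 2.01 ± 0.24 and 5.97 ± 0.67), whose close copies may share reads. Acot3 and Acot5 lay at 0.0843 and 0.0706 CPM in wild-type against 1.73 and 4.47 CPM in knockout-labelled adipocytes. They passed the filter on low counts only through the knockout-labelled libraries, so a rise was built in. Both are among the 17 and the 56 counted above.

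The remaining lists were mixed. Of 16 genes of fatty acid activation and entry 5 rose and 3 fell. Acsl5 and Slc27a4, an acyl-CoA synthetase and a transporter, rose (0.68 ± 0.08 and 0.64 ± 0.11). Slc27a2 fell from 2.77 to 0.280 CPM and Fabp3 from 0.979 to 0.0240 CPM in the group means. Fabp3 passed the filter on low counts only through the wild-type libraries, so its fall was built in. Of the ketone body genes, Oxct1, which lets cells burn ketone bodies, rose by 1.45 ± 0.16, and Slc16a1, a monocarboxylate transporter, by 0.54 ± 0.17. Of 8 other microsomal genes 2 rose, Cyp4v3 (1.07 ± 0.13) and Cyp4f13 (0.24 ± 0.08), and 2 fell, Cyp4b1 (-1.69 ± 0.26) and Cyp4a32 (-1.72 ± 0.30). Of 14 other PPAR targets 4 rose and 4 fell, with rises in Klb (1.18 ± 0.15), Acot1 (1.55 ± 0.38) and Mgll (0.41 ± 0.10) and a fall in Ucp2 (-1.02 ± 0.27). Of 24 regulators and partners 10 rose and 0 fell, among them Pdk2 (0.67 ± 0.11), Pparg (0.40 ± 0.08), Nr1h3 (0.49 ± 0.13) and Esrra (0.56 ± 0.15).

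In liver no gene of the 33 passed the test (edgeR, adjusted over 13288 genes), where 0.0226% of all genes did. Of the 32 tested, 7 had an unadjusted p under 0.05 (8.62% of all genes tested), and DESeq2 called 1, Cyp4a31 (DESeq2 adjusted p = 0.00294), where it called 0.783% of all genes. The median log2 difference was 0.11 over the 32 genes and 0.00 over all genes. Of the mitochondrial genes, Cpt1b was too low to test (0.119 to 0.575 CPM), and the other 17 lay between -0.17 ± 0.10 (Hadh) and 0.31 ± 0.19 (Crat). Acadvl and Hsd17b4, which rose in adipocytes, differed in liver by 0.02 ± 0.09 and -0.04 ± 0.08 (edgeR adjusted p = 0.962 and 0.918).

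The largest genotype differences in liver belonged to the Cyp4a genes and to Fgf21, and none passed with edgeR. Cyp4a10 lay at 709, 480, 1270 and 648 CPM in the 4 wild-type libraries, and at 1049, 1620, 1111 and 1442 CPM in the 4 labelled knockout. The groups overlapped through WT-1138, and the difference was 0.75 ± 0.27 (SE, n = 4 per group; edgeR adjusted p = 0.512). Cyp4a14 was high in the same mice, WT-1138, KO-1139 and KO-1152 (1286, 1774 and 1176 CPM), against 322 to 575 CPM in the other 5, and differed by 0.67 ± 0.48 (edgeR adjusted p = 0.713). Cyp4a31 lay at 19.8 to 38.2 CPM in the wild-type libraries, against 35.4 to 63.5 CPM in those labelled knockout, and differed by 1.0 ± 0.22 (edgeR adjusted p = 0.296). These neighbours on chromosome 4 are close copies, and reads that fit several of them may have been split or dropped. Fgf21, the fasting hormone made under PPAR-alpha control, lay at 0.230 to 1.46 CPM in wild-type livers and at 4.51 CPM in KO-1137 against 1.28 to 1.52 CPM in the other 3, a difference of 1.31 ± 0.56 (edgeR adjusted p = 0.558).

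Decr1, Eci2 and Vnn1 were the genes whose liver groups did not overlap, all higher in the libraries labelled knockout, as in 2.36% of all genes tested. Vnn1 lay at 23.7 to 50.3 CPM in the wild-type libraries, against 53.9 to 65.5 CPM in those labelled knockout (0.58 ± 0.19, edgeR adjusted p = 0.511). Eci2 lay at 292 to 341 and 376 to 445 CPM (0.32 ± 0.09, edgeR adjusted p = 0.454), and Decr1 at 212 to 242 and 248 to 261 CPM (0.20 ± 0.08, edgeR adjusted p = 0.515). Pex11a differed by 0.32 ± 0.12 (edgeR adjusted p = 0.515) and Ppara by 0.03 ± 0.13 (edgeR adjusted p = 0.959). Of 122 other pathway genes tested in liver none passed with edgeR, and 31 had an unadjusted p under 0.05, against 8.62% of all genes tested. The smallest p-values of their lists belonged to Acot1 (0.85 ± 0.15, edgeR adjusted p = 0.211), the fatty acid transporter gene Cd36 (-1.29 ± 0.24, edgeR adjusted p = 0.251) and Acacb (0.82 ± 0.16, edgeR adjusted p = 0.260).

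**Figure D2:**
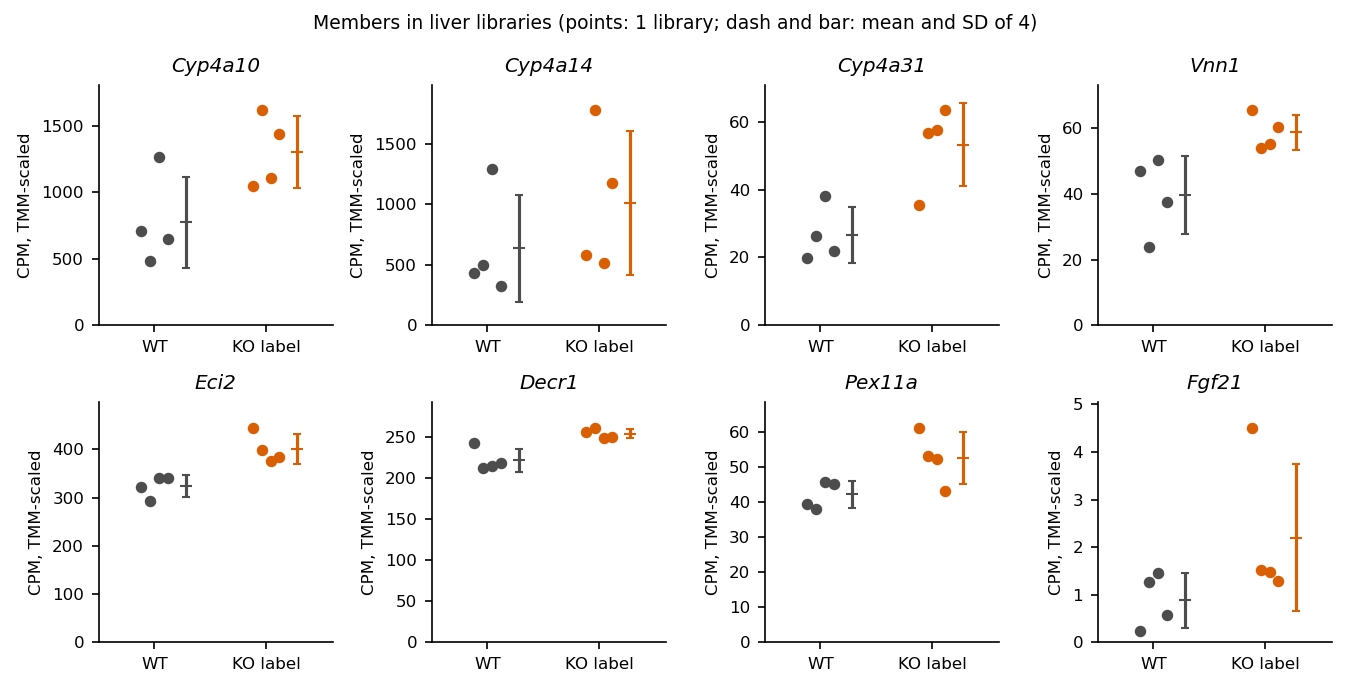
Each panel gives 1 gene in the 8 liver libraries (CPM, axis from 0), with the mean and SD of each group beside the points. The groups of Vnn1, Eci2 and Decr1 do not overlap, those of the Cyp4a genes do, and the mean of Fgf21 in the group labelled knockout rests on 1 library at 4.51 CPM.

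The difference between the genotype effects of the tissues was tested in 1 model over all 16 libraries. Effects kept their sign, and the difference was taken as adipocytes minus liver. Of the 33 genes 4 were called above 0 and 0 were called below it, where 10.4% and 8.73% of all 14898 genes were. The 4 were Acadvl (0.92 ± 0.14, edgeR adjusted p = 0.000485), Hsd17b4 (0.86 ± 0.15, edgeR adjusted p = 0.00153), Acadl (0.66 ± 0.17, edgeR adjusted p = 0.0130) and Hadh (0.56 ± 0.16, edgeR adjusted p = 0.0221). The share of members called above 0 was thus near that of all genes. The 3 Cyp4a genes, at the limit of detection in adipocytes, had a median SE of 2.25 here and could hardly be called. Without them 4 of 30 were called above 0 and 0 below. Cpt1b, also among the 33, was too low to test in liver alone. Hadh lost its call when the adipocyte and liver library of a mouse were paired (replicate block, edgeR adjusted p = 0.0610), while Cpt1a (-0.85 ± 0.22, edgeR adjusted p = 0.0283) and Vnn1 (1.18 ± 0.27, edgeR adjusted p = 0.0166) gained one. Without pairing, DESeq2 called 10 differences above 0 and 1 below 0, that of Cpt1a, where it called 24.9% of all genes in either direction. Library totals left 2 differences above 0, without Acadl and Hadh. They gave 2 below 0, Cpt1a (-1.07 ± 0.32, edgeR adjusted p = 0.0279) and Eci2 (-0.49 ± 0.13, edgeR adjusted p = 0.0190). Acadl also lost its call without WT-1138, KO-1139 or KO-1151, and Hadh lost it without any 1 of those mice, WT-1135 or KO-1152.

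**Figure D3:**
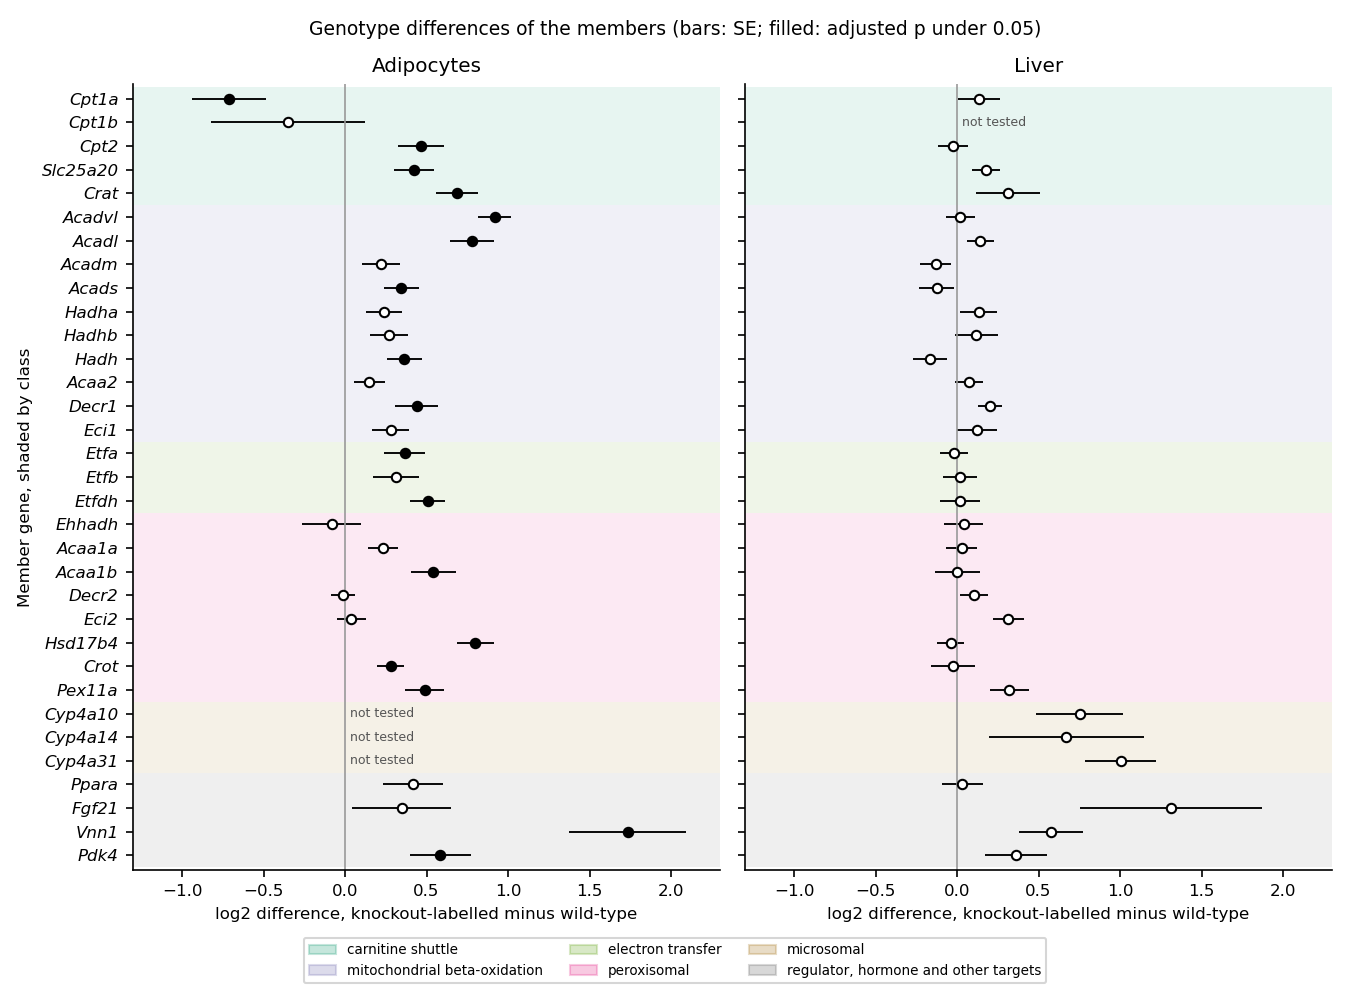
Points are log2 differences (knockout-labelled minus wild-type) with their SE for each gene in adipocytes (left) and liver (right), filled where the adjusted p was under 0.05. In adipocytes 17 points are filled, 16 of them right of 0, and in liver none is filled.

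Between the tissues of wild-type mice, the compartments differed in how far adipocytes stood below liver. Tissue and extraction cannot be told apart here, since adipocyte RNA came from a lipid tissue kit (integrity number above 6) and liver RNA from TRIzol (above 9). Of 32 genes tested, 4 were higher in adipocytes and 21 lower (edgeR, adjusted p under 0.05), against 40.5% and 37.2% of all 14366 genes. All 8 peroxisomal genes were lower, with a median log2 difference of -1.99. All 3 microsomal genes were lower too, but they passed the filter on low counts only through liver, so that direction was built in. Without these 3, 4 of 29 genes were higher in adipocytes and 18 lower. Of 10 genes of the mitochondrial spiral, 2 were higher, 3 lower and 5 did not pass. Per kb of exon, mitochondrial genes made up 88.5% ± 0.281 (SD, n = 4) of the summed level of the compartments in wild-type adipocytes and 57.1% ± 4.47 in wild-type liver, peroxisomal genes 11.5% ± 0.283 and 27.2% ± 2.94, and microsomal genes 0.00323% ± 0.00210 and 15.7% ± 7.01. These shares do not depend on scaling.

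The genes that were higher in wild-type adipocytes were Pdk4, Crat, Hadhb and Acadl. Pdk4 lay at 327 to 568 CPM there and at 1.94 to 3.07 CPM in liver (7.40 ± 0.25 on the log2 scale, edgeR adjusted p = 5.51e-10). Crat lay at 330 to 371 CPM against 25.2 to 44.5 CPM (3.26 ± 0.18, edgeR adjusted p = 2.87e-08). Hadhb was higher by 0.98 ± 0.15 (edgeR adjusted p = 0.000113) and Acadl by 0.51 ± 0.13 (edgeR adjusted p = 0.00492). Hadha, the partner of Hadhb, did not pass (-0.16 ± 0.14, edgeR adjusted p = 0.326).

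Among the genes that were lower in wild-type adipocytes, Cpt1a lay at 24.3 to 41.7 CPM against 467 to 675 CPM in liver (-4.27 ± 0.23, edgeR adjusted p = 2.53e-08). Acaa2 lay at 105 to 133 CPM against 914 to 1046 CPM (-3.03 ± 0.14, edgeR adjusted p = 6.34e-09). Of the peroxisomal genes, Acaa1b was the furthest apart (-5.31 ± 0.18, edgeR adjusted p = 7.11e-10) and Hsd17b4 the least (-0.69 ± 0.14, edgeR adjusted p = 0.000787). Per length, Acaa1b stood at 10.7 ± 0.987 (SD, n = 4) times Acaa1a in wild-type liver and at 0.667 ± 0.124 times in wild-type adipocytes. Ppara lay at 301 to 424 CPM in liver (-3.84 ± 0.14, edgeR adjusted p = 8.38e-10). In CPM, liver Cyp4a10 stood 12441 times (95% counting interval 5606 to 28735) above adipocytes, and Cyp4a31 at least 1829-fold higher, taking 3 counts over the group as the floor.

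The order of levels within a tissue, per kb of exon, differed as well. In wild-type adipocytes Acadl (230 CPM per kb), Etfb (183), Etfa (162), Acadm (120 CPM per kb) and Pdk4 (118) led. In wild-type liver Acaa2 (646 CPM per kb), Acaa1b (456), Cyp4a10 (368), Etfb (316) and Cyp4a14 (244) led. Cpt1a ranked 28 of 33 in adipocytes and 18 in liver.

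In the mice labelled knockout, 9 of 33 genes were higher in adipocytes and 16 lower, against 40.4% and 39.3% of all 14229 genes. Without the Cyp4a genes, which again entered the test only through liver, 9 of 30 were higher and 13 lower. Of the mitochondrial spiral 6 were higher and 1, Acaa2, was lower. Of the peroxisomal genes 7 were lower, and Hsd17b4, at 495 to 544 CPM in adipocytes and 433 to 465 CPM in liver, did not pass (0.18 ± 0.08, edgeR adjusted p = 0.0662). It was called higher in adipocytes with DESeq2 (adjusted p = 0.0255), limma-voom (adjusted p = 0.0310) and library totals (edgeR adjusted p = 3.03e-05). Acadvl, which was lower in adipocytes of wild-type mice (-0.82 ± 0.11, edgeR adjusted p = 5.59e-05), did not pass either (0.10 ± 0.10, edgeR adjusted p = 0.370). Vnn1 stood at -1.16 ± 0.33 (edgeR adjusted p = 0.00768) in wild-type and 0.02 ± 0.22 (edgeR adjusted p = 0.930) in knockout-labelled mice. How far these tissue differences differ between the genotypes is the same quantity as the difference of genotype effects given above. The summed microsomal share in liver was 11.8% to 26.2% in wild-type mice, against 17.7% to 30.2% in those labelled knockout, and the groups overlapped.

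**Figure D4:**
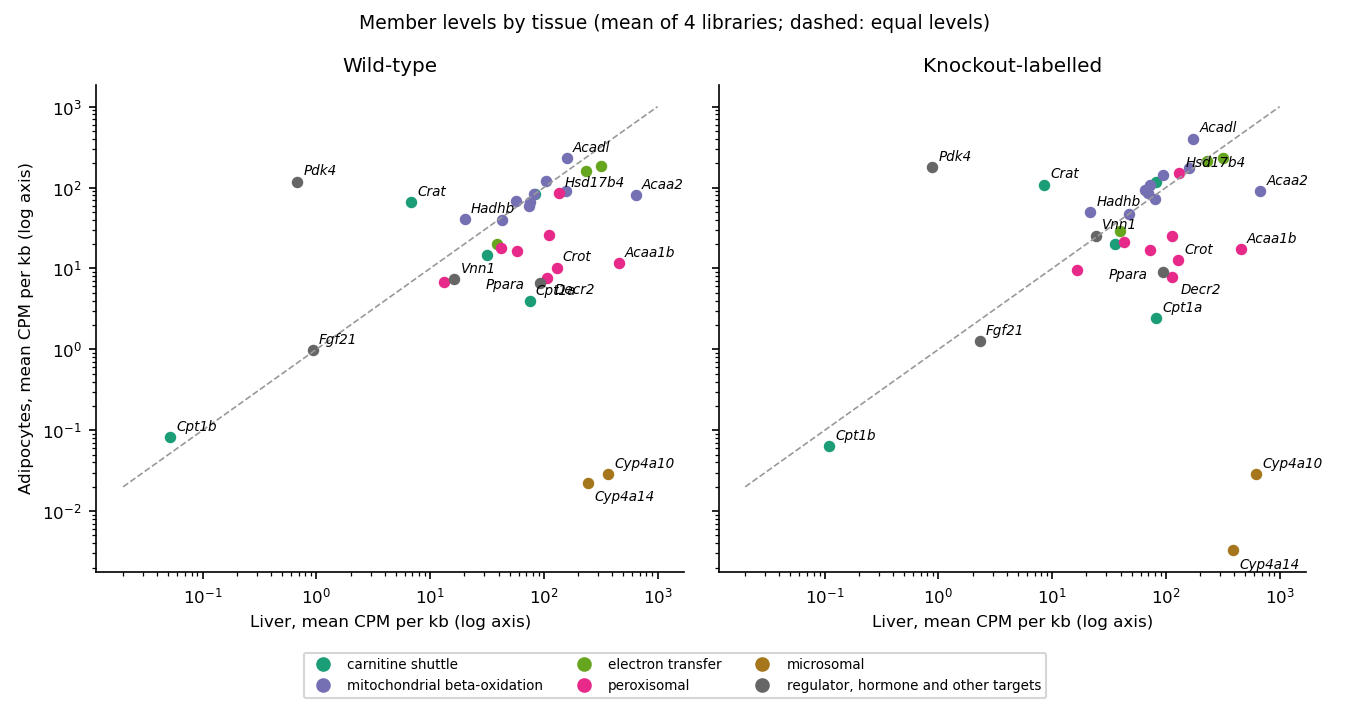
Each point is 1 gene at its mean CPM per kb of exon in liver (x) and adipocytes (y), on log axes, for wild-type (left) and knockout-labelled mice (right); the dashed line marks equal levels and Cyp4a31, at 0 counts in adipocytes, is left out. Peroxisomal genes lie below the line except Hsd17b4 in the right panel, the Cyp4a genes lie at the bottom right, and Pdk4 and Crat lie above it.

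With library totals in place of TMM, the median of all genes moved from 0.06 to 0.71 in the wild-type tissue comparison and from 0.00 to 0.42 in the other, so the directions of genes near 0 are relative to that choice. In wild-type mice 10 genes were then higher and 14 lower, among the latter 7 of the 8 peroxisomal genes, without Hsd17b4. Of the 25 calls in wild-type mice 18 held under every alternative run, and of the 25 in knockout-labelled mice 23 did. Both counts include the Cyp4a genes.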

How the data were processed

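Raw counts per gene symbol, 1 file per library, were used as deposited by the authors. The tools named in the submitters' processing notes are featureCounts 1.5.0, STAR 2.5.2b and bcl2fastq 2.17, with mm10 as the build. The annotation, the strand setting and the handling of multiply mapped reads were not given in the sources used here. Even numbers made up 77.9% of counts between 1 and 20, and the cause was not tested. The counting interval was computed on halved counts, rounded up. Floors took unhalved counts as independent. If counts came in pairs, the floors are too low and the fold bound resting on them too high. Interval and floors cover counting error only.

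Genotypes were compared within each tissue with edgeR 4.0.16 (R 4.3.3): quasi-likelihood test, TMM scaling, filterByExpr by group, two-sided, Benjamini-Hochberg over all genes tested, called under 0.05. The same test compared tissues, and a group means model over all 16 libraries tested the difference of genotype effects. Fold changes are log2 with SE. CPM per kb used exon lengths of GENCODE annotation on GRCm38. Scripts were tested on simulated data. Alternatives were library totals, RLE factors, DESeq2 1.42.0, limma-voom (limma 3.58.1), no filter, halved counts, each mouse left out, age, and the mouse as a block. Per the labels, each mouse number names 1 animal with a library of each tissue, and the pairs' deviations about their group means correlated at -0.0592 to 0.0916 across 14898 genes.

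All 33 genes are reported. Of each pathway list up to 4 genes with the smallest p in adipocytes and up to 2 in liver could be named. Of the markers, Acta1, Alb, Cidea, Elovl3, Ucp1 and Zic1 were chosen after their values were seen. Part of 1 pathway list is not reported here. Members and lists were chosen with earlier results of these data known.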

Additional observations from a re-analysis of the deposited data

Results flagged for a closer look

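In 8 of 130 groups of 4 libraries, 1 library lay far from the other 3, and chance gives about 1 in 20. KO-1137 stood apart in adipocytes for Cpt1a (27.5 CPM against 14.7 to 16.5), Acadl (673 against 834 to 859) and Hadh (459 against 558 to 573), and in liver for Fgf21 (4.51 against 1.28 to 1.52). WT-1135 had the lowest adipocyte Crat of its group (330 against 365 to 371 CPM), and WT-1136 the highest Acads (189 against 133 to 140 CPM). KO-1139 held all counts of Cyp4a10 (0.242 CPM) and Cyp4a14 (0.0346 CPM) in adipocytes labelled knockout.

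The genotype effect differed between adipocytes and liver by the test of the difference itself for Acadvl (0.92 ± 0.14 on the log2 scale, edgeR adjusted p = 0.000485), Acadl (0.66 ± 0.17, edgeR adjusted p = 0.0130), Hadh (0.56 ± 0.16, edgeR adjusted p = 0.0221) and Hsd17b4 (0.86 ± 0.15, edgeR adjusted p = 0.00153). In each of the 4 the difference was called above 0 (adjusted p under 0.05), as it was for 10.4% of all genes tested, a share near that of the members (4 of 33). Hadh lost its call with the mouse as a replicate block (edgeR adjusted p = 0.0610).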

How the results depend on the processing

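Most calls in adipocytes lay close to the threshold: the count of rises fell from 16 to 7 with library totals alone and to 3 with the 76-day mice, and ran from 8 to 20 with 1 mouse left out, while the count of falls was 0 with the 76-day mice and 0 to 1 with 1 mouse left out. RLE factors, DESeq2, limma-voom, no filter and halved counts gave 16 and 1. The cause of these changes was not tested, but the 76-day and left-out sets hold fewer mice. Liver gave 0 calls except 1 with DESeq2.

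Library totals moved the median log2 difference to 0.17 in adipocytes, 0.031 for the difference of effects, -0.245 between tissues in wild-type and -0.084 in knockout-labelled mice. They reversed Acaa2 (-0.048) and Eci2 (-0.15) in adipocytes, and, for the difference of effects, Hadha (-0.11), Hadhb (-0.063), Acaa2 (-0.14), Eci1 (-0.052), Acaa1a (-0.0054) and Pex11a (-0.048). Between tissues they reversed Cpt2 (0.62), Acads (0.42), Hadha (0.49), Hadh (0.63), Eci1 (0.28) and Etfa (0.088) in wild-type mice, with 10 genes higher, and Hadha (0.39), Eci1 (0.23) and Etfa (0.27) in knockout-labelled mice. The difference of effects had 2 positive and 2 negative calls with library totals, and 10 and 1 with DESeq2. It had 1 negative call each with limma-voom and halved counts. With 1 mouse left out it had 2 to 8 positive and 0 to 1 negative calls.

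With 1 mouse left out, signs near 0 turned. In adipocytes Ehhadh ran from -0.21 to 0.080, Decr2 from -0.034 to 0.025 and Eci2 from -0.031 to 0.083. In liver Cpt2 ran from -0.075 to 0.031, Acadvl from -0.017 to 0.072, Etfa from -0.079 to 0.0097, Etfb from -0.063 to 0.076, Etfdh from -0.083 to 0.11, Ehhadh from -0.038 to 0.13, Acaa1a from -0.026 to 0.089, Acaa1b from -0.093 to 0.074, Hsd17b4 from -0.072 to 0.016, Crot from -0.15 to 0.048 and Ppara from -0.042 to 0.12. For the difference of effects Ehhadh ran from -0.21 to 0.073. Between tissues, Cpt2 (-0.12 to 0.072), Hadh (-0.12 to 0.075) and Fgf21 (-0.32 to 0.42) turned in wild-type mice and Hadha (-0.10 to 0.058) and Vnn1 (-0.16 to 0.18) in the others.

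Other reversals were small. With the 76-day mice these were Etfa (0.037), Etfdh (-0.11) and Ppara (-0.021) in liver. With age in the model they were Eci2 in adipocytes (-0.00046) and Cpt2 (0.019) and Etfa (0.015) in liver. With all 16 libraries in the fit they were Decr2 in adipocytes (0.0061) and Acaa1b in liver (-0.0048). With no filter they were Acaa1b in liver (-0.0073), and Hadh in wild-type (0.0088) and Hadha in knockout-labelled mice (0.0101) between tissues. With limma-voom it was Vnn1 between tissues in knockout-labelled mice (-0.047).

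With the mouse as a replicate block, the difference of effects had 4 positive calls and 1 negative. Vnn1 between tissues in knockout-labelled mice was then -0.046. The block left the counts of calls between tissues as they were. Genotypes within a tissue share no mouse, so no block applies there.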
